A study of Mus musculus with 2 samples.

Results

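Myod1, Myog, Myf6, Mef2a, Mef2c and Mef2d, the transcription factors that set up and maintain the skeletal muscle program, were followed through the single fibres of 1 mouse muscle. The 6 genes were named by symbol among the 35163 genes of the count table, and the rule that lists them uses no measured value. All 6 had counts in the cells described here. Those cells were the 171 of 763 that had more than 5000 genes with a count and less than 20% of their counts from mitochondrial (mt-) genes. Each cell was given a fibre class by the largest of its counts of the myosin heavy chain genes Myh1, Myh2, Myh4, Myh7 and Myh8. By this rule 117 cells were fast 2X (Myh1), 51 were fast 2A (Myh2), 2 were slow (Myh7) and 1 was fast 2B (Myh4).

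Myod1, Myog and Myf6 (also called MRF4) belong with Myf5 to the myogenic regulatory factors, or MRFs. These are basic helix-loop-helix proteins that pair with E proteins and bind the E-box in muscle genes. Myod1 and Myf5 act in myoblasts and satellite cells, Myog drives their differentiation, and Myf6 is the MRF best known from adult fibres. The MEF2 proteins carry a MADS box, bind an A/T-rich site, and act together with the MRFs. Their activity in adult fibres is held down by class IIa histone deacetylases and raised by calcium-dependent and p38 kinases, and MEF2 is known for its part in the slow and oxidative gene program.

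The muscle was the flexor digitorum brevis (FDB), which bends the toes and is made mostly of fast fibres. It came from 1 untreated C57BL/6J mouse more than 3 months old. For the study as a whole the paper names male mice, of both C57BL/6J and DBA2 backgrounds. After collagenase digestion whole myofibers, and some fragments, were sorted by size into plates. The cells carry 8 index names (n705 to n712). Each index is taken here as 1 plate, which the labels do not state. The plates were sequenced on 2 lanes, which are the 2 deposited samples. The method, mcSCRB-seq, counts each captured RNA molecule once by its unique molecular identifier (UMI). All cells are from 1 animal, so the cells are not replicates of a fibre type and no p-value was computed. The kept cells held 28827 to 1542996 UMI counts, and the median was 206510 for fast 2A and 255726 for fast 2X cells. The 763 barcodes were all distinct. Levels are summed counts scaled to a common total (CPM) with exact Poisson 95% limits, and ratios have exact conditional binomial limits. Both kinds of limit cover counting error only. Of 8 markers of myofibers none was at 0, and Ttn, the giant spring protein titin, reached 58816 CPM. Since no marker of the other cell types listed below was at 0 either, this does not test the fibre label.

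Conserved stretches of the coding sequence of the 6 genes show how alike the members of each family are. The stretches below are 120 bases of the coding sequence (GENCODE M21, GRCm38), aligned within each family without gaps, and capitals mark the bases that not all 3 members share. For the MRFs the stretch is the window of highest identity. It lies in the helix-loop-helix part, after the basic region, and begins at coding base 370 in Myod1, 286 in Myog and 322 in Myf6.
Myod1: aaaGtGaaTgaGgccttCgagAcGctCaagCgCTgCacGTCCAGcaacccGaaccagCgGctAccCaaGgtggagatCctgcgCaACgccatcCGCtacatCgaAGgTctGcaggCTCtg
Myog: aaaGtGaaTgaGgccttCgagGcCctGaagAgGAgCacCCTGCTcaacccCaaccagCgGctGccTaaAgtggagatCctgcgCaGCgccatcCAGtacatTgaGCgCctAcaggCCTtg
Myf6: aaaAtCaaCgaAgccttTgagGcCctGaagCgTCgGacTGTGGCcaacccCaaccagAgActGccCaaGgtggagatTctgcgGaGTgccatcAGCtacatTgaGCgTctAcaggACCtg
For the MEF2 genes the stretch is the first 120 coding bases, in the MADS box.
Mef2a: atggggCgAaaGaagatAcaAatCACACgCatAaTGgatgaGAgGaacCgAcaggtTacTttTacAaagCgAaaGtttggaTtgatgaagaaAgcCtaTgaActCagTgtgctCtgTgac
Mef2c: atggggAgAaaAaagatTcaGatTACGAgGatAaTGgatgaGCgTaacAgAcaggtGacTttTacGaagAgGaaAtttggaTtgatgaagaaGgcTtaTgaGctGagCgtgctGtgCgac
Mef2d: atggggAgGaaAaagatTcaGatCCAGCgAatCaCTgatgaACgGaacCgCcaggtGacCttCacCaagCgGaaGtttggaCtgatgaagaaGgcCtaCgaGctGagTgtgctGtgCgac

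Even here 39 of 120 bases differed in at least 1 MRF and 35 of 120 in at least 1 MEF2 gene. Pairs of MRFs were identical at 73.3% (Myod1 and Myf6) to 78.3% of these bases, and pairs of MEF2 genes at 77.5% (Mef2a and Mef2d) to 81.7% (Mef2c and Mef2d). The cDNA reads were 66 bases long, and no stretch of 66 bases in the transcripts of 1 member occurred in another. Mef2a shared 1.29% of its 66-base stretches with genes outside the family, and the other 5 members shared none. Mef2a also lies across Lysmd4 on the opposite strand (34.3 CPM), and Mef2d overlaps 1700113A16Rik (1.75 CPM) by 531 bases. Reads from these overlaps cannot be divided here, because the use of strand in the counting was not given in the sources used here.

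In GRCm38 the MRF genes are short: Myod1 lies on chromosome 7 from 46376474 to 46379099, Myog on chromosome 1 from 134289989 to 134292548, and Myf6 on chromosome 10 from 107492853 to 107494737. Myf5 lies 6718 bases from Myf6 on the same strand. The MEF2 genes are longer, with Mef2a on chromosome 7 from 67231163 to 67372858, Mef2c on chromosome 13 from 83504034 to 83667080, and Mef2d on chromosome 3 from 88142372 to 88172086. The RefSeq promoter table (GRCm38.p6, 250 bases before to 50 after a start) held 4 of the 6 members. The Myog promoter is shown because the MRFs themselves bind E-boxes, and the Mef2a promoter because it held the MEF2 motif. Capitals mark the matches to CANNTG and to the MEF2 motif, taken as YTAWWWWTAR (Y is C or T, W is A or T, R is A or G).
Myog, chr1:134289754-134290053, plus strand: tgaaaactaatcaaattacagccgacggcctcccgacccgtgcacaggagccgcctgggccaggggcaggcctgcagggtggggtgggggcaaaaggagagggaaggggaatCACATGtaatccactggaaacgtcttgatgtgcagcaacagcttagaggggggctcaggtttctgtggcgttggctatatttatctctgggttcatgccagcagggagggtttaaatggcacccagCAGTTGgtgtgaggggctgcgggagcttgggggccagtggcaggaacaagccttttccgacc
Mef2a, chr7:67372809-67373108, minus strand: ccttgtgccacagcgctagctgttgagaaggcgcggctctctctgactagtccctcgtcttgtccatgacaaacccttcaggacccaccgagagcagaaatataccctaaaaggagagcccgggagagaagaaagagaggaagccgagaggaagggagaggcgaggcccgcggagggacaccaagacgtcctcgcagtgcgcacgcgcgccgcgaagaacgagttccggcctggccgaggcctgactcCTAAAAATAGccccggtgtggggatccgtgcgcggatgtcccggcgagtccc

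On both strands, the Myog promoter held 2 matches to the E-box letters CANNTG, which were found in 72.3% of 32851 promoters, and none to CAGCTG, found in 16.3%. The Mef2a promoter held 1 match to the MEF2 motif, beginning 2 bases before the start, and 3.19% of all promoters held one. The Myog promoter held 0 matches, but its stretch ctatatttat departs from the motif only at the last letter. Near matches of this kind were not counted, so no match does not mean no MEF2 site. Of the 3 Mef2c promoters 2 held CANNTG. The Mef2d promoter held neither motif. These matches describe letters in a window and do not show binding.

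Mef2c was by far the most counted of the 6 genes. Over the 171 kept cells it reached 1664 CPM (95% limits 1652 to 1675), which put it at place 59 of 34125 genes with a count. Mef2a followed at 152 CPM (149 to 156), Mef2d at 105 CPM (102 to 108), Myf6 at 85.0 CPM (82.5 to 87.6) and Myod1 at 41.0 CPM (39.3 to 42.8). Myog was lowest at 4.41 CPM (3.86 to 5.02). The limits of neighbours in this order did not overlap.

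Levels were also scaled per kb of exon, with the exons of all transcripts of a gene joined, and there the order changed. Mef2c led at 106 CPM per kb, and Myf6, a short gene, came next at 67.3 CPM per kb. Myod1 had 22.0, Mef2d 17.5, Mef2a 10.4 and Myog 2.95 CPM per kb, so that on this scale Mef2c was 35.9 times Myog. A UMI marks a molecule and not a stretch of it, so CPM need not grow with gene length. The division by exon length can therefore add a dependence on length. Mef2c had 15715 joined exon bases from 31 transcripts, and Myf6 1263 from 1. Which scale is nearer to molecules per gene was not tested. The 2 family members outside the list were both low, with Mef2b at 17.1 CPM and Myf5 at 4.31 CPM. Per kb of exon Myf6 was 32.5 times its neighbour Myf5, from 85.0 and 4.31 CPM before the division.

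**Figure D1:**
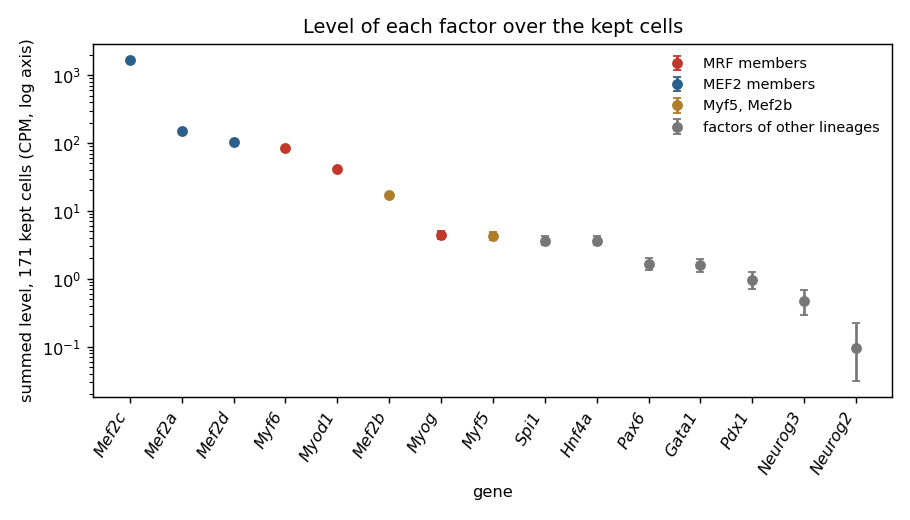
Summed level over the 171 kept cells (CPM, log axis) of the 6 members, of Myf5 and Mef2b, and of factors of other lineages, with exact Poisson 95% limits. Mef2c stands at 1664 CPM, whereas Myog (4.41 CPM) and Myf5 (4.31 CPM) lie beside Spi1 (3.66 CPM) and Hnf4a (3.64 CPM). Genes with no count are not drawn.

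Such low levels were set beside those of factors that other lineages use. Of 15 such genes 9 were in the table, and 2 of these, Cdx2 and Nkx2-5, had no count, which allows up to 0.0578 CPM by 3 counts over the kept cells. Neurog2, Gata1, Pdx1, Pax6 and Neurog3 had 5 to 86 counts each, or 0.0963 to 1.66 CPM. Spi1, a factor of myeloid cells, had 3.66 CPM (3.16 to 4.22) and Hnf4a, a factor of liver and gut, had 3.64 CPM (3.14 to 4.20). The limits of Myog and Myf5 overlapped both. Over all kept cells, Myog and Myf5 were therefore not separable from Spi1 and Hnf4a, the highest of these factors. Both Myog and Myf5 had limits above those of Pax6 (1.66 CPM, 1.32 to 2.05), the next highest. The other 5 members had summed levels of 41.0 CPM and more. Plate n711, 1 of the 8 plates, was different for Myog: it was 12.6 CPM there (10.0 to 15.6), above Spi1 at 3.84 CPM (2.48 to 5.66) and Hnf4a at 1.23 CPM (0.530 to 2.42). On the other 7 plates together Myog was 3.24 CPM (2.74 to 3.81), and its limits overlapped those of Spi1 (3.10 to 4.23) and Hnf4a (3.43 to 4.61).

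Within each family 1 gene took most of the counts. Mef2c held 86.6% of the counts of the 3 MEF2 members (95% limits 86.4 to 86.8), Mef2a 7.94% and Mef2d 5.46%. Mef2c was above both Mef2a and Mef2d in every one of the 168 fast cells of the fast 2A and fast 2X classes. Of the counts of the 3 MRFs, Myf6 held 65.2% (64.0 to 66.3), Myod1 31.4% and Myog 3.38%.

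Counts of Mef2c were found in 171 of 171 cells, of Mef2a in 170, of Mef2d in 169, of Myf6 in 164, of Myod1 in 154 and of Myog in 89. All 3 MEF2 members had a count in 168 cells. All 3 MRFs had a count in 87 cells, in which the median depth was 335628 UMIs, against 57443 UMIs in the 2 cells with no MRF count. When every cell was thinned to 28827 counts, the lowest total, Mef2c was still found in 171 cells, Mef2a in 163, Mef2d in 154, Myf6 in 139 and Myod1 in 97 (medians of 10 repeats). Myog was found in 20.5 cells, close to Myf5 with 17.5.

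Mef2c was the steadiest of the 6 from cell to cell. Its level ran from 249 to 2684 CPM with a median of 1635 CPM, and its coefficient of variation was 0.269, where counting error alone would give 0.0664. The coefficient was 0.450 for Mef2a, 0.603 for Mef2d, 0.624 for Myf6 and 0.756 for Myod1, each above its counting value of 0.219, 0.264, 0.294 and 0.423. For Myog it was 1.96 against 1.29 from counting, and for Myf5 1.41 against 1.30.

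The main comparison asked whether the factors differed between fast 2A and fast 2X fibres. Myod1 was lower in fast 2A, and Myf6, Mef2a, Mef2c and Mef2d differed by less than 1.5 times. Myog was higher in the sums, but that difference rested on 1 plate. At least 1.5 times apart were 2 of the 6 members, where 18.3% of the 15687 genes with at least 100 counts in the 2 classes together (the 5 Myh genes left out) passed that fold (4.12% higher and 14.1% lower in fast 2A). The median log2 ratio of fast 2A over fast 2X over these genes was -0.12, and a trimmed-mean (TMM) scaling would move all ratios up by 0.11. With that scaling 1005 genes were at least 1.5 times higher and 1603 lower in fast 2A, in place of 647 and 2219. The directions of the 6 members did not change with it.

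**Figure D2:**
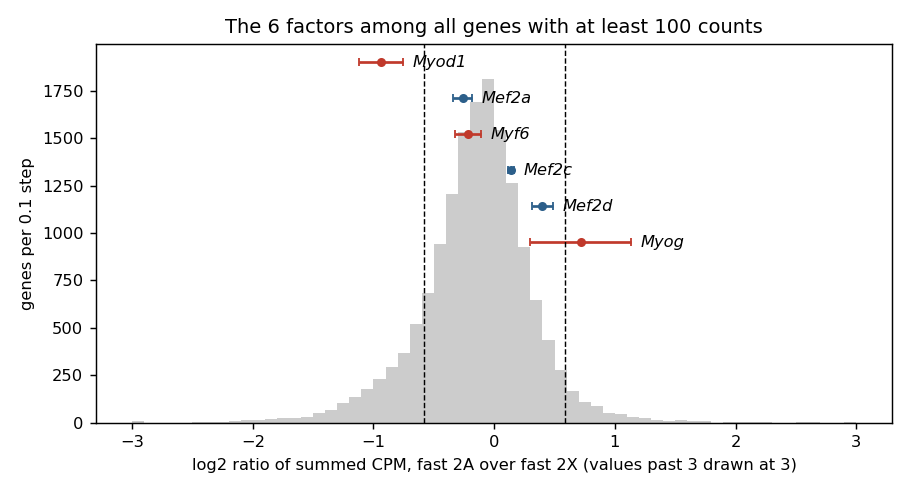
Log2 ratio of summed CPM, fast 2A over fast 2X, for 15687 genes (grey bars, in steps of 0.1) and for the 6 members with 95% limits, drawn at arbitrary heights. Dashed lines mark 1.5 times. Myod1 lies at -0.94 and Myog at 0.72, and the other 4 lie between the lines.

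Myod1, the factor that can turn other cells into muscle, was 24.4 CPM (95% limits 21.6 to 27.3) in fast 2A and 46.7 CPM (44.6 to 48.9) in fast 2X cells. In single cells it ran from 0 to 84.7 CPM in fast 2A with a median of 16.2 CPM, and from 0 to 121 CPM in fast 2X with a median of 40.2 CPM. The ranges overlapped, yet the upper quartile of the fast 2A cells (32.8 CPM) lay below the median of the fast 2X cells. The log2 ratio was -0.94 (-1.12 to -0.76), a level 1.92 times higher in fast 2X.

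Fast 2A was the lower class for Myod1 in 8 of 8 plates, with log2 ratios from -1.95 on plate n705 to -0.06 on plate n709. In 6 of the 8 plates the limits lay below 0. Of all 15687 genes 4.39% were lower in fast 2A in all 8 plates, and 2.84% were so and also at least 1.5 times lower in the sums. By lane the ratio was -1.07 on lane 1 and -0.74 on lane 2. Fast 2X cells held more UMI counts at the median, and the level of Myod1 followed the UMI total of the cell (Spearman rho 0.37 over 171 cells). Whether that total reflects sequencing depth or captured RNA was not tested. Within the lower, middle and upper depth tertiles the ratio was -1.44, -0.56 and -0.99. With every cell thinned to the same total, a fast 2A cell had 0.612 and a fast 2X cell 1.21 Myod1 counts on average.

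Markers of other cell types were present at low levels in both classes and in part moved the same way. Over all genes, 14.1% were at least 1.5 times lower in fast 2A. Of the satellite cell markers, 3 of 9 with enough counts were at least 1.5 times lower in fast 2A, and the summed list ran from 213 to 271 CPM over the plates in fast 2A and from 194 to 325 CPM in fast 2X. Smooth muscle and pericyte markers were lower in 4 of 6, at 123 to 280 CPM against 142 to 360 CPM. Endothelial markers were lower in 3 of 7 (90.0 to 250 CPM against 91.2 to 279 CPM) and Schwann cell markers in 3 of 6 (26.2 to 91.9 CPM against 35.2 to 226 CPM). None of the 7 fibroblast or 4 immune markers with enough counts passed the fold, and their summed lists ran from 121 to 280 and 6.71 to 36.0 CPM in fast 2A and from 119 to 252 and 10.1 to 27.0 CPM in fast 2X. Over all kept cells, few genes held most of several sums. Abcc9 was 160 of 207 CPM for smooth muscle and pericytes, Tek 91.0 of 168 CPM for endothelium and Plxdc2 115 of 188 CPM for fibroblasts. Itga7 (126 CPM) and Sdc4 (96.0 CPM) made up most of the 250 CPM for satellite cells. No marker of these lists was at 0. Pax7, which defines satellite cells, was 8.48 CPM in fast 2A and 6.79 CPM in fast 2X. The part of these cells in the Myod1 difference was not tested.

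Myf6 was 76.0 CPM (71.1 to 81.1) in fast 2A and 88.2 CPM (85.3 to 91.2) in fast 2X cells. The cells ranged from 0 to 196 CPM in fast 2A, with a median of 66.4 CPM, and from 0 to 305 CPM in fast 2X, with a median of 72.5 CPM. The classes overlapped almost fully, and the log2 ratio was -0.21 (-0.32 to -0.11), near the -0.12 of all genes. It was above 0 in 3 plates and below 0 in 5, and in the lower and middle depth tertiles it was 0.22 and 0.041.

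Myog, the factor of myoblast fusion and differentiation, had 74 counts in fast 2A and 148 in fast 2X cells, or 6.21 CPM (4.88 to 7.80) and 3.78 CPM (3.19 to 4.44). The median cell had 2.66 CPM in fast 2A and 0.648 CPM in fast 2X, and the highest cells had 62.3 and 79.2 CPM. The log2 ratio was 0.72 (0.30 to 1.13), with 5 plates above 0 and 3 below. Plate n711 alone held 35.8% of all Myog counts, although it held 12.6% of the UMI counts. Without that plate the ratio was 0.20, which is under 1.5 times. By lane it was 0.19 on lane 1 and 1.18 on lane 2, to which n711 belongs.

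On plate n711 Myog reached 12.6 CPM, with counts in 19 of 25 cells, and on the other 7 plates 2.19 to 3.99 CPM, with counts in 70 of 146 cells. The 3 cells with the most Myog counts, 15, 14 and 12, were all on this plate, and 2 of them were fast 2A and 1 was fast 2X. The log2 ratio of this plate over the others was 1.96 (1.55 to 2.36), and 0.133% of 15788 genes had a ratio as high. Myod1 (0.30), Myf6 (-0.06), Mef2a (-0.04), Mef2c (-0.09) and Mef2d (0.03) did not stand out in this way. Of the 14 genes of the synapse and of denervation, 6 had limits above 0 for this plate over the others and 2 below 0. Gadd45a, which is known to rise in denervated muscle, was 18.0 CPM on n711 and 9.65 CPM elsewhere, and Myh3 was 42.0 and 30.1 CPM. Chrna1, a receptor subunit that also rises on denervation, was 114 and 154 CPM, and Chrng, the fetal subunit, was 0.614 and 0.507 CPM. Chrne, the adult subunit, was 79.3 and 47.2 CPM. Of the 9 satellite cell markers, 5 had limits above 0 and 2 below 0, and none was at 0. Vcam1 was 7.06 CPM on n711 and 3.39 CPM elsewhere (log2 1.06, 0.55 to 1.54), Heyl was 4.76 and 2.84 CPM and Myf5 was 6.44 and 4.01 CPM. Pax7, which defines these cells, went the other way with 4.76 and 8.17 CPM, as did Calcr with 1.53 and 2.93 CPM. The summed level of the 9 markers was 275 CPM on n711 and 247 CPM elsewhere. Most of this sum was Itga7 (135 and 125 CPM) and Sdc4 (108 and 94.3 CPM), which had counts in 171 and 167 of the 171 kept cells. The sum therefore says little about the other markers, and the part of satellite cells in the Myog level was not tested. The share of all genes with limits away from 0 for this plate was not computed, so the counts from the 2 lists have no background beside them. This plate was singled out after its values were seen.

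**Figure D3:**
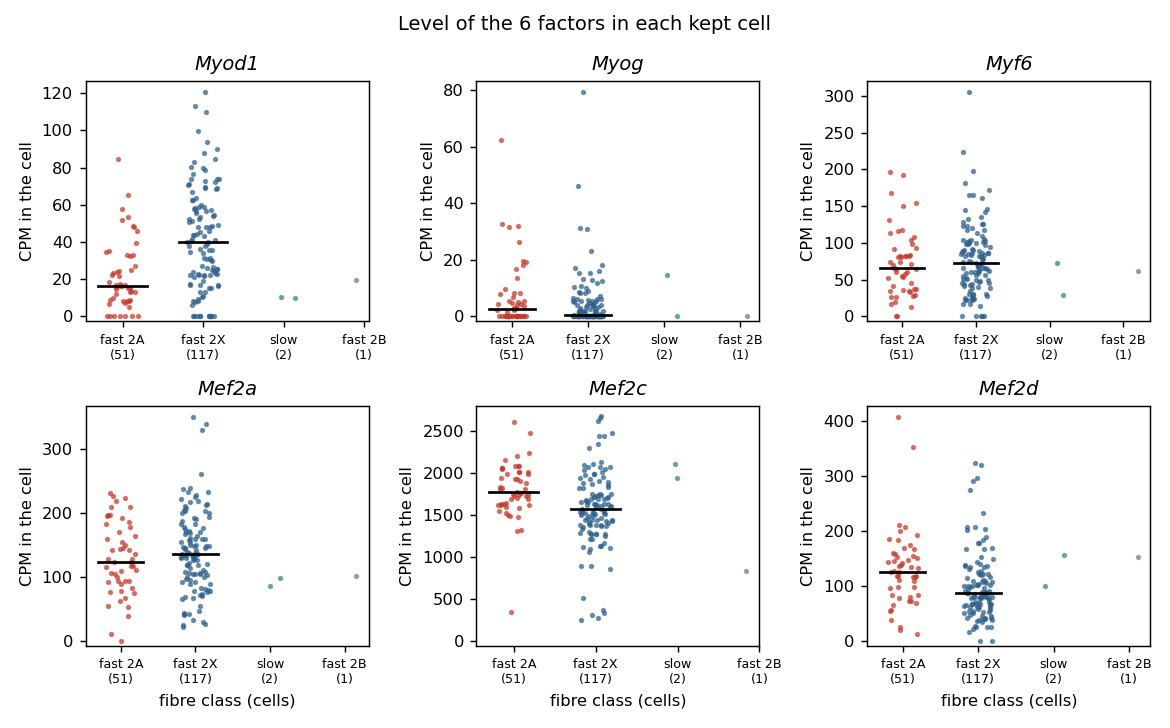
CPM of each member in each kept cell by fibre class (fast 2A 51, fast 2X 117, slow 2 and fast 2B 1 cells), each panel on its own linear axis. Black bars are medians of the classes with more than 5 cells. For Myod1 the medians are 16.2 and 40.2 CPM in fast 2A and fast 2X, and for Mef2d 126 and 87.6 CPM, with overlapping cells in every panel.

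Of the MEF2 genes, Mef2d differed most between the classes. It was 128 CPM (121 to 134) in fast 2A and 97.0 CPM (93.9 to 100) in fast 2X. Cells ran from 13.4 to 407 CPM in fast 2A, with a median of 126 CPM, and from 0 to 323 CPM in fast 2X, with a median of 87.6 CPM. The median of fast 2A lay above the upper quartile of fast 2X (123 CPM), although the ranges overlapped. The log2 ratio was 0.40 (0.31 to 0.48), or 1.32 times, and it was above 0 in 7 of 8 plates and in all 3 depth tertiles (0.28, 0.22 and 0.49). Mef2d stood at the 91.5th percentile of all genes tested.

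Mef2a went the other way by a small amount. It was 133 CPM (127 to 140) in fast 2A and 160 CPM (156 to 164) in fast 2X cells, with medians of 124 CPM (0 to 231) and 136 CPM (22.8 to 351). The classes overlapped over most of their range, the log2 ratio was -0.26 (-0.34 to -0.18), and fast 2A was the lower class in 7 of 8 plates. In the lower and middle depth tertiles it was 0.069 and 0.074, and in the upper one -0.37.

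Mef2c was 1791 CPM (1768 to 1816) in fast 2A and 1626 CPM (1613 to 1638) in fast 2X cells. Its cells had medians of 1776 CPM (351 to 2610) and 1573 CPM (249 to 2684), overlapping over nearly the whole range. The log2 ratio of 0.14 (0.12 to 0.16) was outside counting error but small, 1.10 times, and was above 0 in 6 of 8 plates. By plate it ran from -0.11 to 0.42.

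**Figure D4:**
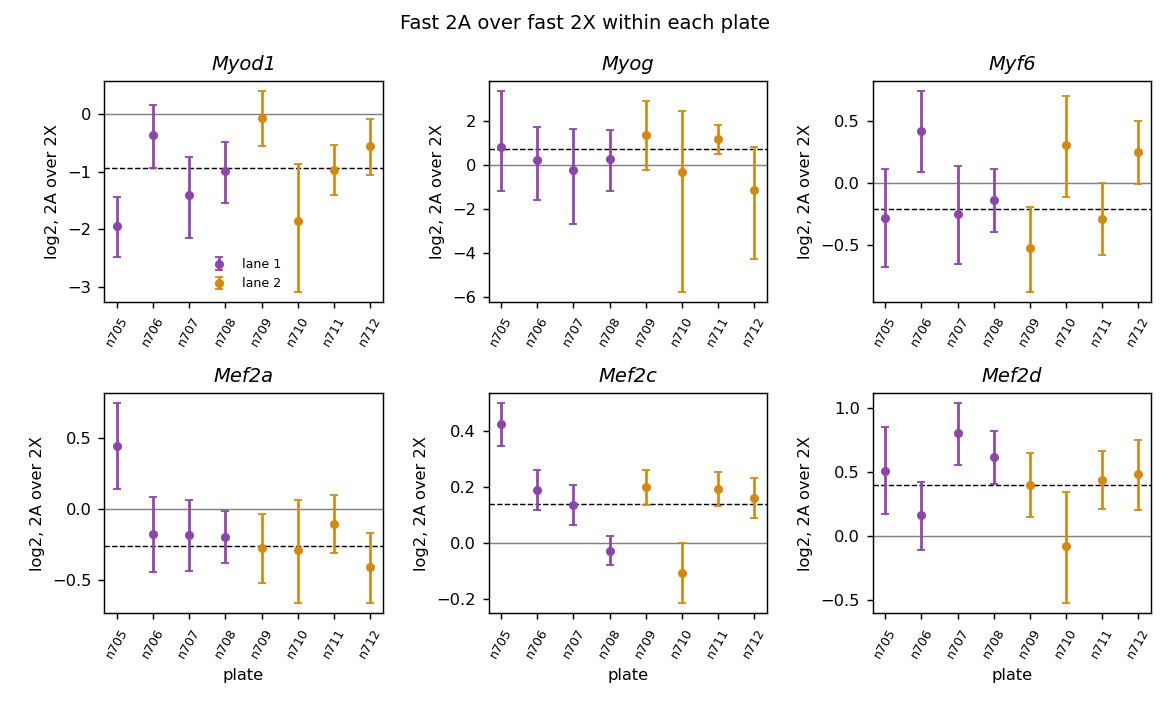
Log2 ratio of summed CPM, fast 2A over fast 2X, within each of the 8 plates with exact 95% limits (lane 1 purple, lane 2 orange); the dashed line is the ratio over all plates and the grey line is 0, each panel on its own axis. Myod1 is below 0 in 8 plates and Mef2d above 0 in 7, whereas Myog and Myf6 lie on both sides.

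Ratios of 2 members within the same cells do not use the cell total for scaling, but they can still move with depth. Mef2d had 0.959 counts per Mef2a count in fast 2A cells (95% limits 0.893 to 1.03) and 0.608 in fast 2X cells (0.583 to 0.633). The ratio was larger in fast 2A in 8 of 8 plates and in each depth tertile (1.01 against 0.873, 0.877 against 0.791, and 0.989 against 0.545). In fast 2X it was lower in the deeper tertiles, and over the 171 cells the level of Mef2a followed the cell total (Spearman rho 0.30) where that of Mef2d hardly did (0.04). Mef2d exceeded Mef2a in 25 of 51 fast 2A cells (49.0%) and in 28 of 117 fast 2X cells (23.9%). This pair was chosen after the values were seen.

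Among the MRFs, Myf6 had 3.12 counts per Myod1 count in fast 2A cells (2.73 to 3.57) and 1.89 in fast 2X cells (1.78 to 2.00). The ratio was larger in fast 2A in 7 of 8 plates. Myf6 exceeded Myod1 in 45 of 51 fast 2A cells and in 89 of 117 fast 2X cells. This pair was not in the plan either. It uses the same counts as the class levels of Myod1 and Myf6 above, so it is not separate support for them. Across the counts of the 3 MRFs, Myod1 made up 22.9% in fast 2A and 33.7% in fast 2X cells.

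Many fibres carried both Myh1 and Myh2, so the members were also followed along the Myh2 share of the sum of the 2 genes, in 48 cells under 20%, 60 cells at 20 to 40%, 18 cells at 40 to 60% and 45 cells at 60% and over. Myod1 was 48.1, 45.1, 39.4 and 20.6 CPM along these bins, so that its lower level was mainly in the last bin. Mef2d was 93.9, 101, 123 and 126 CPM, and Mef2a was 166, 151, 144 and 129 CPM. Neither Myf6 (104, 69.1, 63.0 and 77.5 CPM) nor Mef2c (1642, 1541, 1962 and 1777 CPM) moved in 1 direction. Myog was 2.51, 3.96, 10.5 and 6.72 CPM, but without plate n711 it was 2.26, 3.66, 5.90 and 3.84 CPM. The bins took in all kept cells, and both slow cells lay at 40 to 60%, where the 16 fast 2A and fast 2X cells alone gave 10.3 CPM of Myog and 44.3 CPM of Myod1. The bin at 40 to 60% held 18 cells, and the first bin was the deepest, with 330043 UMIs in its median cell against 171238 to 209096 in the others.

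**Figure D5:**
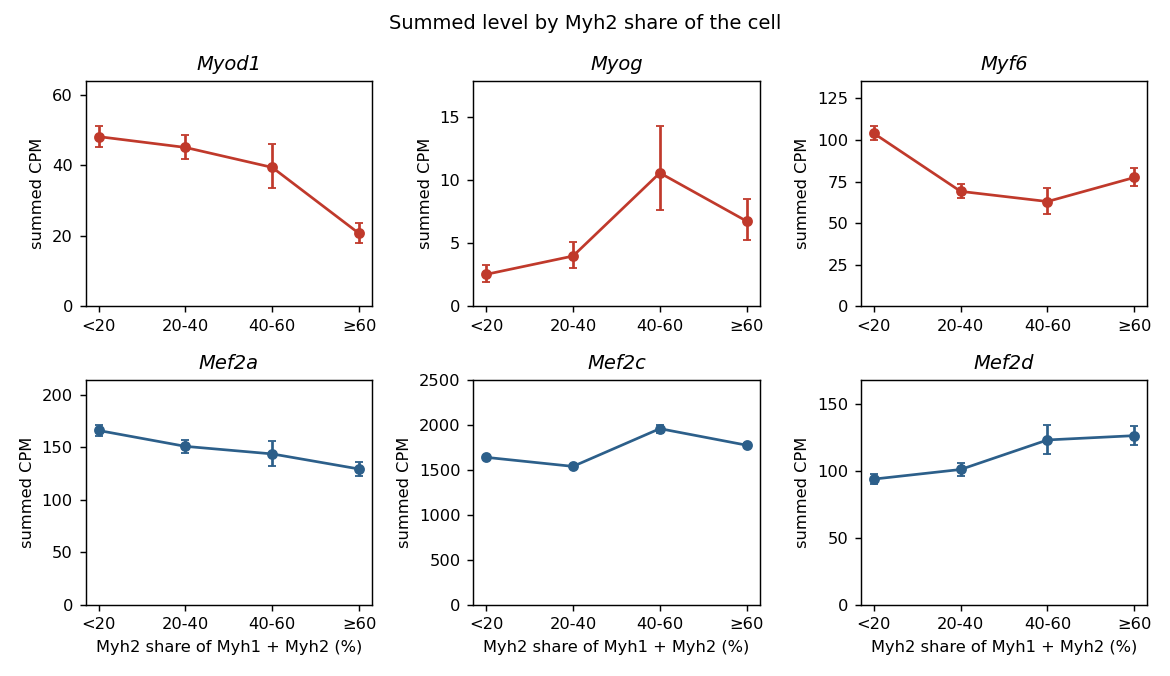
Summed CPM of each member with exact Poisson 95% limits against the Myh2 share of Myh1 plus Myh2 (48, 60, 18 and 45 cells from left to right), axes from 0. Myod1 goes from 48.1 to 20.6 CPM between the outer bins, Mef2d goes from 93.9 to 126 CPM and Mef2a from 166 to 129 CPM.

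The 2 slow cells and the 1 fast 2B cell are single observations. In the slow cells Myod1 had 5 and 1 counts (10.4 and 9.94 CPM), below the median of both fast classes, and Myf6 had 73.1 and 29.8 CPM. Myog had 7 counts (14.6 CPM) in the first slow cell and 0 in the second, where 3 counts would be 29.8 CPM. Mef2c was 1940 and 2107 CPM in the slow cells and 833 CPM (725 to 952) in the fast 2B cell. Mef2a was 85.6 and 99.4 CPM in the slow cells and 101 CPM in the fast 2B cell. Mef2d was 157 and 99.4 CPM in the slow cells and 152 CPM in the fast 2B cell, in which Myod1 was 19.5 CPM, Myf6 62.3 CPM and Myog at 0. All of these values lay within the range of the fast 2A and fast 2X cells.

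The partners and inhibitors of the MRFs were counted as well. Among the E proteins, Tcf4 was 165 CPM, Tcf12 68.0 CPM and Tcf3 8.24 CPM, and 0 of 3 differed by 1.5 times between the classes (log2 ratios -0.10, 0.04 and -0.12, median -0.10). Of 9 inhibitors and related bHLH factors 2 were at least 1.5 times higher and 2 lower in fast 2A, where 4.12% and 14.1% of all genes were. Their median log2 ratio was -0.13. Id2, an Id protein that takes E proteins away from the MRFs, was 49.0 CPM in fast 2A and 24.9 CPM in fast 2X (log2 0.98, higher in 7 of 8 plates), and Mdfi, an inhibitor of MRF entry into the nucleus, was 5.54 and 3.52 CPM (log2 0.65). Id4 (1.60 and 3.29 CPM) and Twist1 (1.43 and 2.22 CPM) were lower but rested on 152 and 105 counts. The most counted of this group were Bhlhe40 (198 CPM) and Mxi1 (44.1 CPM).

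The regulators of MEF2 were counted in the same way. Of 6 class IIa deacetylases and other MEF2 repressors 0 passed 1.5 times, with a median log2 ratio of 0.06. The most counted were Hdac4 (197 CPM) and Hdac9 (116 CPM), and the ratios ran from -0.22 for Hdac4 and -0.06 for Cabin1 to 0.13 for Hdac9 and 0.34 for Sirt1. Of 10 tested kinases that act on MEF2 or on its repressors 3 were at least 1.5 times lower in fast 2A, as were 14.1% of all genes, and none was higher, with a median of -0.21. Those 3 were Camk2a (log2 -0.76), Camk2g (-0.66) and Mapk14 (-0.63), which encodes p38 alpha, and each was lower in 8 of 8 plates. The highest ratios were those of Camk2b (0.24) and Camk2d (0.19), and the highest levels those of Map2k3 (342 CPM) and Mapk12 (310 CPM). Mapk11 (11 counts) and Mapk7 (84 counts) were under the minimum.

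Of 12 coactivators 2 were at least 1.5 times lower in fast 2A and none higher, where 14.1% and 4.12% of all genes were. The median log2 ratio was -0.12, as over all genes. Mamstr, a coactivator of MEF2 in muscle also known as MASTR, was 5.63 CPM in fast 2A and 12.5 CPM in fast 2X (log2 -1.15, lower in 8 of 8 plates), and Carm1, an arginine methyltransferase that acts with MEF2C, was 14.6 and 23.6 CPM (log2 -0.69). Kat2a (0.27) and Jmjd1c (0.26) had the highest ratios. Vgll2 (145 CPM) and Crebbp (139 CPM) were the most counted.

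Among 18 tested genes known as targets of MRFs or MEF2, 1 was higher and 2 were lower in fast 2A, where 4.12% and 14.1% of all genes were. The median log2 ratio was 0.11 for the targets, -0.12 over all genes and 0.15 over the 8 general myofibre markers. Myoz2, the slow-fibre calsarcin, was 783 CPM in fast 2A and 275 CPM in fast 2X (log2 1.51), and Mb, myoglobin, was 2095 and 1463 CPM (log2 0.52, under the fold). Both were higher in 8 of 8 plates. Mstn, myostatin, was 15.8 and 46.5 CPM (log2 -1.56) and Ckm, muscle creatine kinase, was 3022 and 4552 CPM (log2 -0.59), both lower in 8 of 8 plates. Acta1 (29388 CPM) and Mylpf (12881 CPM) were the most counted. Mymk had 22 counts and Mymx, its partner in myoblast fusion, had 1 count in all kept cells.

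Of 13 tested genes of the synapse and of the response to denervation, which Myog drives, 1 was higher and 2 were lower, with a median of -0.01. Of all genes, 4.12% were higher and 14.1% lower. Myh3, embryonic myosin, was 77.0 CPM in fast 2A and 15.5 CPM in fast 2X (log2 2.32, 8 of 8 plates), followed by Runx1 (0.34). Chrne, the adult acetylcholine receptor subunit, was 32.1 and 57.6 CPM (log2 -0.84, lower in 8 of 8 plates). Chrng, the fetal subunit, had 27 counts in all kept cells and was under the minimum. Trim63 (394 CPM) and Fbxo32 (211 CPM) were the most counted of this list.

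The fibre markers showed the distance between the classes against which these ratios stand. Of 8 fast fibre markers 5 were lower in fast 2A (median log2 -0.75), led by Mybpc2 (-2.13) and Actn3 (-1.74), and of 8 slow or oxidative markers 7 were higher (median 2.31), led by Tnnt1 (3.51) and Myl2 (3.15). At the other end of these lists were Tnni2 (-0.20) and Tnnt3 (-0.18), which were also the most counted fast markers (6921 and 11427 CPM), and Mb (0.52) and Atp2a2 (1.20). Mb (1614 CPM) and Tnnt1 (958 CPM) were the most counted slow markers. Of 8 general myofibre markers 1, Ckm, passed the fold, where 18.3% of all genes did in either direction. Neb (0.19) and Ttn (0.18) had the highest ratios there, and Ckm (-0.59) and Ryr1 (-0.10) the lowest. These classes were set by Myh genes of the same cells, so the marker values describe the classes.

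For each member with at least 1000 counts, the 3 genes whose CPM ranked most alike over the 171 cells were taken from 8748 genes with at least 500 counts. Myod1 was most like Pvalb (Spearman rho 0.60), Pygm (0.57) and Mss51 (0.57), of which Pvalb encodes the calcium buffer parvalbumin of fast fibres and Pygm the muscle glycogen phosphorylase. Mef2c was most like Golga4 (0.63), Xirp2 (0.61) and Zfp106 (0.53), and Irs2 (0.39) was among the 3 most like Mef2d. Hspb8 (0.46) and Ampd1 (0.45) were among the 3 most like Myf6, and Mef2a was most like Malat1 (0.49), Csnk1a1 (0.46) and Msi2 (0.45). The points share plates, lanes and depth. With the rank of the cell total taken out, these values were 0.56 for Myod1 and Pvalb, 0.63 for Mef2c and Golga4 and 0.43 for Mef2a and Malat1. Among pairs of members the highest values were those of Myod1 and Myf6 (0.30) and of Mef2a and Mef2c (0.27), or 0.21 and 0.29 with the rank of the cell total taken out. The similar genes were taken as the highest of 8748, so their values cannot be set against those of the member pairs, and all are given as a description without a test.

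Among the cells that did not pass the filters, 592 in all and 16032 UMIs deep at the median, all 6 members were less abundant per count. Mef2c was 495 CPM there, Mef2a 52.3, Mef2d 41.4, Myf6 21.5, Myod1 10.7 and Myog 0.834 CPM from 13 counts. The log2 ratio of kept over not kept cells ran from 1.34 for Mef2d to 2.40 for Myog, and all 6 were at least 1.5 times higher in the kept cells, as were 51.8% of 17052 genes. The filter on mitochondrial counts sets part of these ratios. On totals without mt- genes Myog had 1.42 (0.62 to 2.35), Myf6 1.00, Myod1 0.95, Mef2c 0.77, Mef2a 0.56 and Mef2d 0.35, where the median of all genes was -0.34. On that scale 4 of 6 members were at least 1.5 times higher, where 11.8% of genes were. Fragments that did not pass were close to whole myofibers that did not pass, with Mef2c at 556 and 478 CPM, Myf6 at 23.9 and 20.8 CPM and Myod1 at 8.68 and 11.3 CPM.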

How the data were processed

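The deposited table held raw UMI counts for 35163 genes in 763 cells from 1 mouse. Above them were 10 description lines, among them index (read here as plate), lane, cell kind and totals. Every gene line was checked to hold whole numbers. The authors mapped reads to GRCm38 with ERCC spike-ins in zUMIs, with STAR 2.5.4b and featureCounts, and collapsed the UMIs. In the kept cells a median of 3.04% of the UMIs stated per cell lay outside the gene lines. The study's filters were applied (more than 5000 genes, under 20% mt- counts). Counts were summed per class, divided by the summed gene counts and scaled to CPM, without a pseudocount. Genes entered the comparison of classes with at least 100 counts in both classes together, and 1.5 times was the fold used. Trimmed-mean (TMM) factors were computed on the class sums. Limits are exact at 95%. The ratio limits were run on simulated Poisson counts drawn from the class sums, without variation between cells or plates. That run therefore cannot show how they hold for cells that vary beyond counting error. Exons, overlaps and coding sequences came from GENCODE M21, and promoters from RefSeq.

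The members and the gene lists were chosen with earlier results of these data known. Named beyond the members were, for each list, the 2 highest by CPM, the 2 highest and 2 lowest by ratio and the genes under the minimum, and the 3 most similar genes. Satellite, endothelial, smooth muscle, fibroblast, immune and Schwann markers are given by counts, with the gene that a result turns on. Listed genes outside the table were not analysed here. A few genes that this rule would name are not reported here. Python 3.11.15, numpy 2.4.6, pandas 2.3.3 and scipy 1.17.1 were used. Alternatives changed scaling, cell filters, class rule, depth, lane, plate and count minimum.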

Additional observations from a re-analysis of the deposited data

How the results depend on the processing

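No paired analysis was possible because the 2 deposited samples are lanes of 1 group and share no replicate number with another group; fast 2A and fast 2X cells were on all 8 plates, and the ratios within plates are a description over cells of 1 mouse. In 25 alternatives to the log2 ratio of fast 2A over fast 2X, Myod1 stayed below 0 (-1.44 to -0.56, past 1.5 times in 24), and Myog (0.19 to 1.18, past in 21), Mef2c (0.084 to 0.34) and Mef2d (0.22 to 0.51) stayed above 0. Myf6 and Mef2a were below 0 in 23 and above 0 in 2, the lower and middle depth tertiles, and the cause was not tested. The depth tertiles, the totals stated per cell, whole myofibers alone and the levels and Myh2 share bins without plate n711 or in fast 2A and fast 2X cells alone were added after seeing the data.

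TMM factors gave -0.10 for Myf6, -0.15 for Mef2a, 0.25 for Mef2c and 0.51 for Mef2d. The mean over cells gave -0.11 for Myf6, -0.12 for Mef2a and 0.20 for Mef2c, and thinning gave -0.14 for Mef2a and 0.18 for Mef2c. Totals without mt- genes gave 0.17 for Mef2c. In the lower depth tertile the ratio was -1.44 for Myod1, 0.22 for Myf6, 0.069 for Mef2a, 0.34 for Mef2c and 0.28 for Mef2d, in the middle one -0.56 for Myod1, 0.041 for Myf6, 0.074 for Mef2a and 0.22 for Mef2d, and in the upper one 0.27 for Myog, -0.32 for Myf6, -0.37 for Mef2a, 0.12 for Mef2c and 0.49 for Mef2d. Leaving out a lane or a plate gave -1.07 to -0.74 for Myod1, 0.19 to 1.18 for Myog and 0.084 to 0.19 for Mef2c.

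Genes past 1.5 times numbered 4034 higher and 6397 lower in fast 2A without a count minimum, 222 and 632 with at least 500 counts, and 1005 higher with TMM factors. On totals without mt- genes the log2 ratio of kept over not kept cells was 0.95 for Myod1, 1.42 for Myog, 1.00 for Myf6, 0.56 for Mef2a, 0.77 for Mef2c and 0.35 for Mef2d. Over the cells, the median level was 1.56 CPM for Myog, and 41 cells had at least 2 Myog counts. With 74 and 148 Myog counts in the classes, its limits spanned 0.30 to 1.13 on the log2 scale, which is the precision this depth gives.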
